A study of Homo sapiens with 6 samples.

Results

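The collagen chain genes are the genes whose symbol, ignoring case, is COL, a number, A and a number, and they were followed through 3 pairs of RNA-seq libraries in which LARP7 was depleted or left in place. The rule found 44 collagen genes among 49089 in the mouse table and 44 among 63521 in each human table, and 43 of the 45 symbols were in every table. Col6a4 was listed for mouse alone and COL21A1 for human alone. In either species 11 genes belong to the fibril-forming class, 6 encode type IV collagen of basement membranes, and 27 fall in the other classes. The 6 libraries came from LARP7-/- and wild-type mouse embryonic fibroblasts (MEFs), from MDA-MB-231 cells given siLARP7 or siNC, and from HCC1937 cells given siLARP7 or siNC. The MEFs were taken from E13.5 embryos and used at passages 1 to 6, and the sources used here do not say whether a MEF library held the cells of several embryos. The 2 human lines are established from breast cancers, and HCC1937 carries a mutant BRCA1 gene. The siRNAs were used at 10 ng/ml, and siNC is the control siRNA by its label. Each group held 1 library, so the differences have no replicate check and no test was run.

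Collagens are built from chains that fold into a triple helix inside the endoplasmic reticulum and are then secreted. Fibrillar chains form the cable-like fibrils of connective tissue, type IV chains form the sheet that underlies epithelia, and the others decorate fibrils, form beaded filaments or span the cell membrane. Fibroblasts are the main makers of fibrillar collagen, whereas epithelial cells make chiefly components of the basement membrane. Prolyl and lysyl hydroxylases modify the chains, dedicated chaperones and carriers fold and export them, and lysyl oxidases crosslink them outside the cell. LARP7 is a La-related protein that binds the noncoding RNA 7SK. A relative of it, LARP6, is known for binding a stem-loop in mRNAs of type I collagen.

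Depth recovered from the values was 36.9 to 53.3 M reads per library, at which 1 read in a gene of 1 kb is worth 0.0187 to 0.0271 RPKM (reads per kilobase scaled to the library's read total, the authors' unit). LARP7 RNA was at 37.6% of the control level in the LARP7-/- MEFs, 52.2% in MDA-MB-231 and 51.4% in HCC1937, which checks the direction of the labels. In MEFs the fibroblast markers Vim, Thy1 and Pdgfrb, among the 5 of 6 that passed 1 RPKM, were at 514, 240 and 43.9 RPKM in the knockout and at 698, 200 and 41.6 RPKM in the wild type, whereas Fap was at 0.393 RPKM in the knockout and 0.421 RPKM in the wild type. All 6 epithelial markers passed that level in HCC1937, where EPCAM and CDH1 were at 62.6 and 20.4 RPKM with siLARP7 and at 67.4 and 30.2 RPKM with siNC. In MDA-MB-231, CDH1 was at 0.503 RPKM with siLARP7 and 0.835 RPKM with siNC, so this defining epithelial marker was under 1 RPKM. In that line 3 of 6 epithelial markers passed the level, KRT18, KRT8 and EPCAM, at 83.5, 79.5 and 3.34 RPKM with siLARP7 and at 68.3, 67.1 and 3.498 RPKM with siNC. Whether fewer cells of a type or less RNA per cell lies behind a lower value cannot be told apart in bulk RNA.

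COL4A1 and COL4A2 encode the chains that assemble into the common network of type IV collagen, and they are shown here because their start sites face away from each other within 126 bases and the RNA ratios of both genes are followed below. The letters are the 250 bases before each start on GRCh38.p14, from RefSeq, at chr13:110307158-110307407 on the minus strand for COL4A1 and chr13:110307034-110307283 on the plus strand for COL4A2. Capitals mark the motif CCAAT (on the other strand read as ATTGG), the motif GGGCGG (on the other strand read as CCGCCC) and the motif TATAAA (on the other strand read as TTTATA).
COL4A1: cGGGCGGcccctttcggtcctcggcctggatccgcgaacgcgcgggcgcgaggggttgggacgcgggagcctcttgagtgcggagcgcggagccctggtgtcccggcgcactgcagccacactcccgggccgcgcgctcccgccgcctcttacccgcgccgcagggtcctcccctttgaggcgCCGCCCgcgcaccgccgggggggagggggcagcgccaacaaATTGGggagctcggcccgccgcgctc
COL4A2: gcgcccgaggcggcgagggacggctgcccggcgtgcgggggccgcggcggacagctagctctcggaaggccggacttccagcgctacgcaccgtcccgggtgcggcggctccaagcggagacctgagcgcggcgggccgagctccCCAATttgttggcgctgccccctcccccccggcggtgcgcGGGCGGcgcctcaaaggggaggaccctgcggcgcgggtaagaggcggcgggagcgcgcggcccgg

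The 126 bases between the starts are in both windows on opposite strands, and they hold the CCAAT and the GGGCGG that the windows share. The COL4A1 window holds 2 GGGCGG and the COL4A2 window holds 1, and neither holds TATAAA. Over the 32 of 44 human collagen symbols with such a window, 28.1% held CCAAT, 56.3% GGGCGG and 15.6% TATAAA, against 33.0%, 42.3% and 11.1% of all 27305 windows. The median GC content of these upstream bases was 65.2% for the collagen genes and 58% for all genes. A match of letters is a description and not a binding site.

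Collagen levels, read as RPKM from separately made tables, differed far more between cell types than between the libraries of a pair. A gene was set aside as low where it was under 1 RPKM in both libraries of a pair, and it was called at a 2-fold difference or more on the scale log2(RPKM + 1). That scale understates the difference of low genes. In MEFs 27 of 44 collagen genes passed the minimum of 1 RPKM in either library, 20 reached 10 RPKM and 8 reached 100 RPKM. In MDA-MB-231 17 stood at 1 RPKM or more and 9 reached 10 RPKM. In HCC1937 11 stood at 1 RPKM or more and 3 reached 10 RPKM. Over the 3 cell types 30 symbols passed the minimum somewhere and 15 nowhere, among them COL4A3 and COL4A4, chains of the kidney glomerular basement membrane, and COL9A1, a cartilage chain. No collagen gene was called higher or lower in any pair. The share of all genes called was 2.4% higher and 0.884% lower in MEFs, 0.501% higher and 0.74% lower in MDA-MB-231, and 0.399% higher and 1.23% lower in HCC1937, so a count of 0 among 11 to 27 genes lies near this background. A looser rule of 1.5-fold took in 4 genes higher and 1 lower in MEFs, against 7.98% and 4.02% of all genes. It took in 0 higher and 1 lower in MDA-MB-231, against 2.88% and 4.03% of all genes, and 1 higher and 0 lower in HCC1937, against 2.75% and 10.8%. By the plain RPKM ratio at 2-fold, 5 were higher and 0 lower in MEFs, against 5.39% and 2.06% of all genes. In MDA-MB-231 the plain ratio took in 0 either way, against 1.95% higher and 2.02% lower over all genes, and in HCC1937 likewise 0, against 1.44% and 6.82%.

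**Figure D1:**
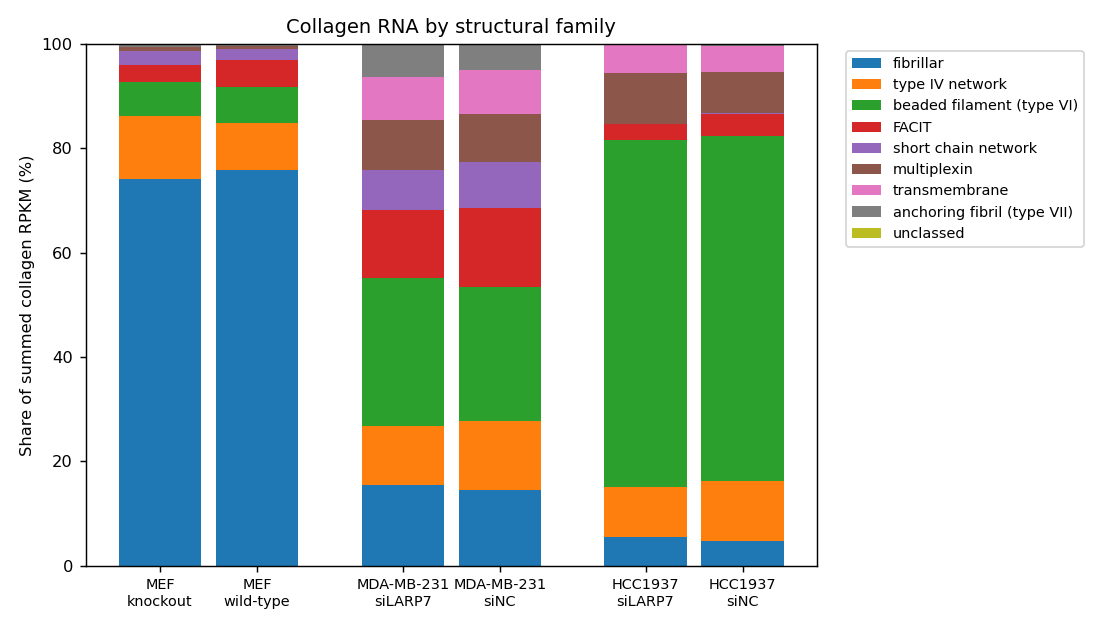
Share of the summed collagen RPKM (y axis, %) held by each structural family in the 6 libraries (x axis, 1 library per bar, LARP7-depleted left of its control). Fibrillar chains held 74.2% in LARP7-/- and 75.9% in wild-type MEFs, and type VI chains held 66.5% with siLARP7 and 66.1% with siNC in HCC1937.

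The summed level of all collagen genes was 3381 RPKM in LARP7-/- and 3338 RPKM in wild-type MEFs. It was 264.7 RPKM with siLARP7 and 277.4 RPKM with siNC in MDA-MB-231. In HCC1937 the sum was 112.7 RPKM with siLARP7 and 84.5 RPKM with siNC. The collagen pool of MEFs was thus mainly fibrillar, that of MDA-MB-231 was spread over many families, and that of HCC1937 was mainly type VI. Type IV chains held 11.9% of the pool in LARP7-/- MEFs against 9.001% in wild-type MEFs, 11.3% with siLARP7 against 13.2% with siNC in MDA-MB-231, and 9.58% with siLARP7 against 11.5% with siNC in HCC1937. In HCC1937 the summed type IV level itself was 10.8 RPKM with siLARP7 and 9.71 RPKM with siNC, so the lower share went with a larger pool. The FACIT family, chains that attach to the surface of fibrils, held less of the pool in each depleted library. Its share was 3.39% in LARP7-/- and 5.04% in wild-type MEFs, 13.0% with siLARP7 and 15.2% with siNC in MDA-MB-231, and 2.96% with siLARP7 and 4.21% with siNC in HCC1937. Without Col12a1 the summed FACIT level of MEFs was 24.6 RPKM in the knockout and 21.6 RPKM in the wild type. Without COL12A1 it was 5.68 RPKM with siLARP7 and 5.47 RPKM with siNC in MDA-MB-231, and 2.17 RPKM with siLARP7 and 2.14 RPKM with siNC in HCC1937, so the lower summed FACIT level of each depleted library came from that gene.

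In the LARP7-/- MEFs the chains of type I collagen, the bulk collagen of fibroblasts, had ratios to the wild type of 0.966 and 1.21, while Col3a1 stood higher and Col12a1 lower than in the wild type. Of the 27 genes above the minimum, 20 had a log2 ratio above 0 and 7 below, where 50% of all genes lay above 0. The median log2 ratio was 0.27 for 11 fibrillar genes, 0.41 for 3 type IV genes and 0.23 for 13 others, beside 0.00 for all genes. Among the fibrillar and other genes, 5 reached 1 RPKM in the knockout library and not in the wild type. These 5 are among the 20 above 0 because of how they passed, and they raise the fibrillar and other medians. Of 6 macrophage and leukocyte markers 4 passed the minimum and all 4 lay above 0, with a summed level of 38.7 RPKM in the knockout and 29.4 RPKM in the wild type. The pan-leukocyte gene Ptprc was at 0.0293 RPKM in the knockout and 0.0370 RPKM in the wild type, and the part of such cells in the collagen values was not tested. With a minimum of 5 RPKM the medians of collagen genes were 0.045 for 8 fibrillar and 0.081 for 9 other genes, and that of the 3 type IV genes was still 0.41.

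**Figure D2:**
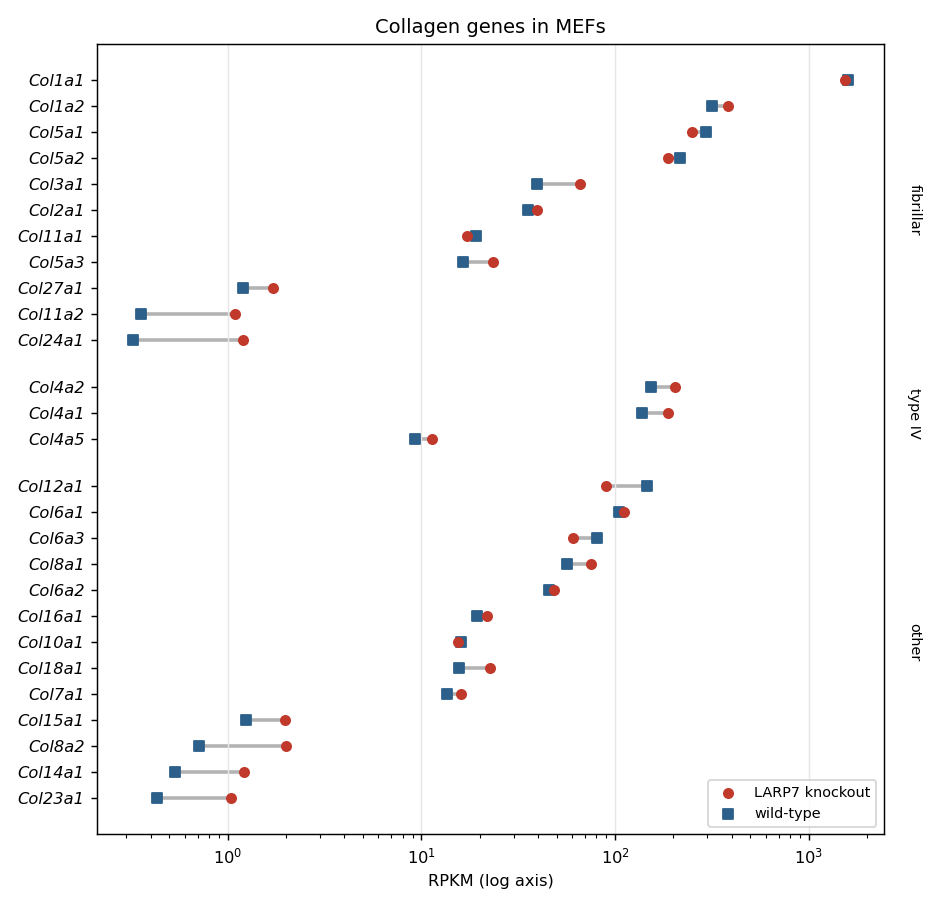
RPKM (x axis, log scale) of the 27 collagen genes above the minimum in MEFs (y axis, by class), with LARP7-/- as circles and wild-type as squares, 1 library each. Col3a1 lies at 65.8 RPKM in the knockout and 39.4 RPKM in the wild type, and Col12a1 lies at 89.9 RPKM in the knockout and 147 RPKM in the wild type.

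Among fibrillar genes, Col1a1, which encodes the main chain of type I collagen, was at 1541 RPKM in the LARP7-/- and 1594 RPKM in the wild-type library, a ratio of 0.966 with a 95% counting interval from 0.955 to 0.978. Its partner chain Col1a2 was at 381 RPKM in the knockout and 315 RPKM in the wild type (ratio 1.21, interval 1.18 to 1.24). The level of Col1a1 was thus 4.04 times that of Col1a2 in the knockout and 5.06 times in the wild type. Col3a1, the chain of type III collagen that is laid down with type I in skin and vessels, was at 65.8 RPKM in the knockout and 39.4 RPKM in the wild type (ratio 1.67, interval 1.57 to 1.79, log2 ratio 0.73). Type V chains sit inside type I fibrils and limit their width. Col5a1 was at 250 RPKM in the knockout and 296 RPKM in the wild type (ratio 0.844, interval 0.821 to 0.868). Col5a2 was at 187 RPKM in the knockout and 215 RPKM in the wild type (ratio 0.871, interval 0.843 to 0.899). The ratio of Col5a1 to Col5a2 was 1.33 in the knockout and 1.38 in the wild type, so the abundant type V chains were in nearly the same proportion while both stood lower in the knockout. The scarcer chain Col5a3 lay on the other side, at 23.5 RPKM in the knockout and 16.3 RPKM in the wild type (ratio 1.44, interval 1.30 to 1.60, log2 ratio 0.50).

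Cartilage collagens were read in both MEF libraries. Col2a1, the fibrillar chain of cartilage, was at 39.4 RPKM in LARP7-/- and 35.7 RPKM in wild-type MEFs, and Col11a1, its fibril partner, at 17.2 RPKM in the knockout and 19.2 RPKM in the wild type. Col10a1, the chain of hypertrophic cartilage, was at 15.4 RPKM in the knockout and 15.9 RPKM in the wild type. None of the 3 differed by more than 1.5-fold. Of 5 chondrocyte markers only Sox9, a regulator of cartilage genes, passed the minimum, at 5.66 RPKM in the knockout and 7.02 RPKM in the wild type. The cartilage proteoglycan gene Acan was at 0.172 RPKM in the knockout and 0.809 RPKM in the wild type, and Matn1 was listed at 0 in the knockout and at 0.0135 RPKM in the wild type. The summed level of the 5 markers was 6.52 RPKM in the knockout and 8.87 RPKM in the wild type, and their part in the collagen values was not tested.

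All 3 type IV genes above the minimum had ratios above 1 in MEFs. Col4a1 was at 188 RPKM in the knockout and 138 RPKM in the wild type (ratio 1.36, interval 1.31 to 1.41, log2 ratio 0.44). Col4a2 was at 204 RPKM in the knockout and 153 RPKM in the wild type (ratio 1.33, interval 1.28 to 1.38, log2 ratio 0.41). The ratio of Col4a1 to Col4a2 was 0.921 in the knockout and 0.898 in the wild type, so the paired genes lay higher together. Col4a5, a chain of more specialised basement membranes, was at 11.3 RPKM in the knockout and 9.23 RPKM in the wild type (ratio 1.22, interval 1.06 to 1.41). Col4a3, Col4a4 and Col4a6 were under 0.5 RPKM in both libraries. In the same libraries 4 endothelial markers, of a cell type rich in type IV collagen, summed to 1.16 RPKM in the knockout and 1.52 RPKM in the wild type. Kdr, the only 1 above the minimum, was at 0.801 RPKM in the knockout and 1.31 RPKM in the wild type. Pecam1 was at 0.0387 RPKM in the knockout and 0.0392 RPKM in the wild type. Cdh5 and Tek lay on the other side, at 0.217 and 0.108 RPKM in the knockout and at 0.103 and 0.0633 RPKM in the wild type. The part of endothelial cells in the type IV values was not tested.

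Outside these classes the MEF values went both ways. Col12a1, a FACIT chain that bridges fibrils, was at 89.9 RPKM in the knockout and 147 RPKM in the wild type (ratio 0.614, interval 0.588 to 0.641, log2 ratio -0.70), which was the lowest ratio among the 27 genes. The type VI chains Col6a1 and Col6a2, which form beaded filaments around cells, were at 111 and 48.1 RPKM in the knockout and at 105 and 45.8 RPKM in the wild type. Their proportion was 2.30 in the knockout and 2.29 in the wild type. Col6a3, which completes the type VI heterotrimer, was at 60.6 RPKM in the knockout and 80.6 RPKM in the wild type (ratio 0.751, interval 0.711 to 0.794). Its level was 0.546 of Col6a1 in the knockout and 0.769 in the wild type, so the chains of type VI did not hold 1 proportion. Col18a1, a basement membrane collagen whose end fragment is endostatin, was at 22.7 RPKM in the knockout and 15.6 RPKM in the wild type (ratio 1.45, interval 1.31 to 1.62, log2 ratio 0.51). Col8a1, a short chain of vessel and corneal matrix, was at 74.8 RPKM in the knockout and 56.4 RPKM in the wild type (ratio 1.32, interval 1.25 to 1.40).

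Among the 27 MEF genes above the minimum, the highest plain ratios belonged to 5 genes near it. Each reached 1 RPKM in the knockout alone, so that a high ratio follows from how they passed. Col24a1 was at 1.20 RPKM in the knockout and 0.324 RPKM in the wild type, from at least 340 reads in the knockout and 91 in the wild type. Col8a2 was at 1.99 RPKM in the knockout and 0.707 RPKM in the wild type, from at least 334 reads in the knockout and 117 in the wild type. Col11a2, Col23a1 and Col14a1 were at 1.09, 1.04 and 1.22 RPKM in the knockout, against 0.357, 0.430 and 0.533 RPKM in the wild type. These 5 were more than 2-fold higher by the plain ratio, where 5.39% of all genes were, and none was called with 1 RPKM added. The other 17 MEF collagen genes were under 1 RPKM in both libraries, with log2 ratios on RPKM + 1 from -0.17 to 0.18. That scale hides plain ratios such as that of the transmembrane chain Col25a1, at 0.224 RPKM in the knockout and 0.0775 RPKM in the wild type (ratio 2.89, interval 1.97 to 4.31).

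In MDA-MB-231 most collagen genes had similar levels with siLARP7 and siNC, and COL4A1 was the gene above 5 RPKM whose level differed most. Of the 17 genes above the minimum, 8 had a log2 ratio above 0 and 9 below, where 50.2% of all genes lay above 0. COL17A1, 1 of the 8, reached 1 RPKM with siLARP7 only, at 1.45 RPKM against 0.932 RPKM with siNC. Its place above 0 follows from how it passed. The median log2 ratio was 0.08 for 4 fibrillar genes, -0.27 for 3 type IV genes and 0.03 for 10 others, beside 0.00 for all genes.

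**Figure D3:**
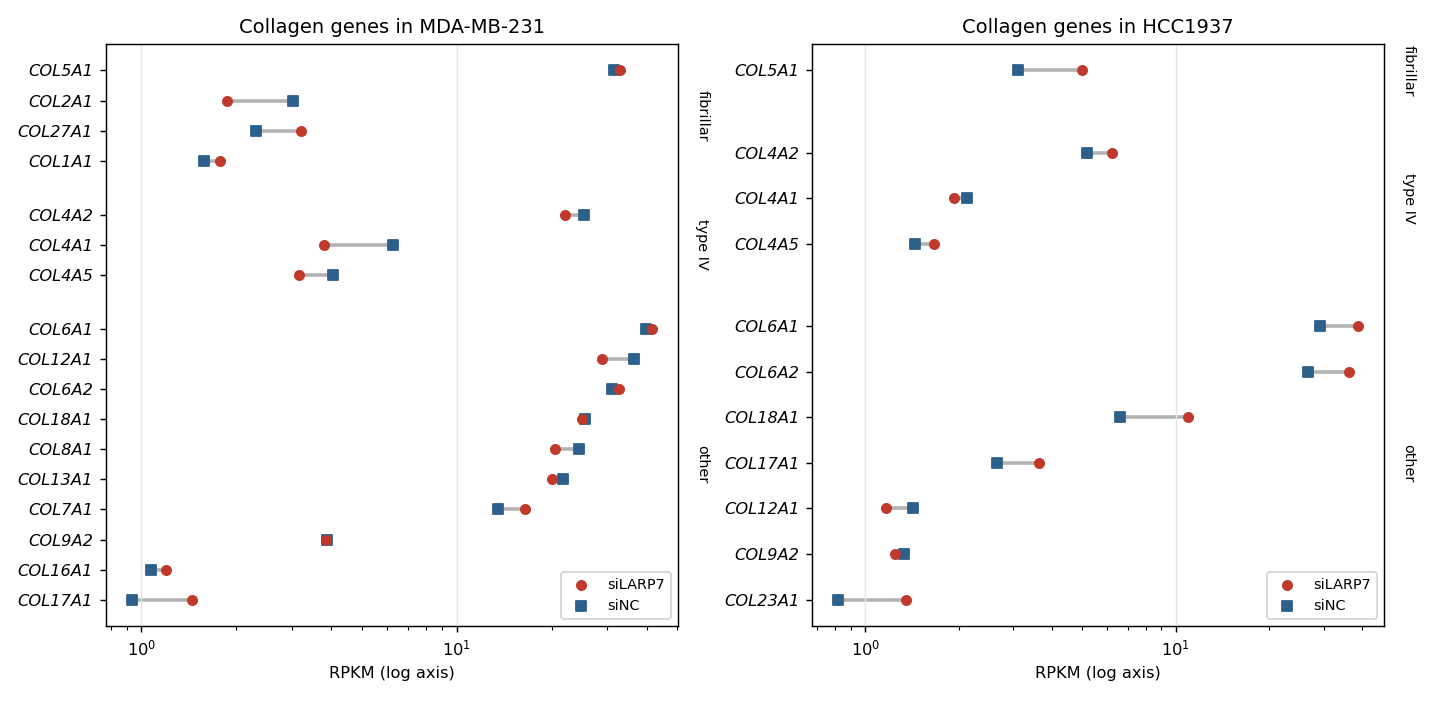
RPKM (x axis, log scale) of the collagen genes above the minimum in MDA-MB-231 (left, 17 genes) or HCC1937 (right, 11 genes), by class, with siLARP7 as circles and siNC as squares, 1 library each. COL4A1 in MDA-MB-231 lies at 3.81 RPKM with siLARP7 and 6.28 RPKM with siNC, and COL18A1 in HCC1937 at 10.9 RPKM with siLARP7 and 6.61 RPKM with siNC.

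The type IV genes of MDA-MB-231 all had ratios below 1. COL4A1 was at 3.81 RPKM with siLARP7 and 6.28 RPKM with siNC (ratio 0.606, interval 0.569 to 0.646, log2 ratio -0.60), from at least 1599 reads with siLARP7 and 2453 with siNC. COL4A2 was at 22.0 RPKM with siLARP7 and 25.2 RPKM with siNC (ratio 0.873, interval 0.848 to 0.898). COL4A5 was at 3.17 RPKM with siLARP7 and 4.04 RPKM with siNC (ratio 0.785, interval 0.636 to 0.969). The proportion of COL4A1 to COL4A2 was therefore 0.173 with siLARP7 and 0.249 with siNC, so in this line the genes with adjacent starts did not keep 1 proportion. An antisense gene, COL4A2-AS1, shares 81 exon bases with COL4A2 on the opposite strand in GENCODE release 29, which is 0.42% of the exon bases of COL4A2. This antisense gene was at 8.26 RPKM with siLARP7 and 12.4 RPKM with siNC. Whether strand was used in counting is not given, so reads of such overlaps cannot be told apart.

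COL5A1 carried most of the fibrillar RNA of MDA-MB-231, at 32.9 RPKM with siLARP7 and 31.6 RPKM with siNC (ratio 1.04, interval 1.02 to 1.06). Its usual partner COL5A2 was at 0.0707 RPKM with siLARP7 and 0.124 RPKM with siNC, from at least 27 reads with siLARP7 and 44 with siNC. Type I collagen was near the minimum in this line. COL1A1 was at 1.77 RPKM with siLARP7 and 1.58 RPKM with siNC (ratio 1.12, interval 1.02 to 1.23), and COL1A2 at 0.605 RPKM with siLARP7 and 0.953 RPKM with siNC (ratio 0.635, interval 0.554 to 0.728). The proportion of COL1A1 to COL1A2 was 2.93 with siLARP7 and 1.66 with siNC. COL2A1 was at 1.86 RPKM with siLARP7 and 3.02 RPKM with siNC (ratio 0.616, interval 0.557 to 0.681). COL27A1, a fibrillar chain of developing cartilage, lay on the other side, at 3.20 RPKM with siLARP7 and 2.31 RPKM with siNC (ratio 1.39, interval 1.27 to 1.52).

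The most abundant collagen of MDA-MB-231 was type VI. COL6A1 was at 41.6 RPKM with siLARP7 and 39.9 RPKM with siNC, and COL6A2 at 32.8 RPKM with siLARP7 and 31.2 RPKM with siNC, in a proportion of 1.27 with siLARP7 and 1.28 with siNC. COL6A3 was under the minimum, at 0.283 RPKM with siLARP7 and 0.441 RPKM with siNC. COL12A1 was at 28.8 RPKM with siLARP7 and 36.6 RPKM with siNC (ratio 0.789, interval 0.737 to 0.845). COL18A1 was at 25.0 RPKM with siLARP7 and 25.6 RPKM with siNC, and its interval, 0.952 to 1.00, holds a ratio of 1. COL7A1, the anchoring fibril that ties the epidermis to the dermis, was at 16.5 RPKM with siLARP7 and 13.6 RPKM with siNC (ratio 1.21, interval 1.10 to 1.34). COL8A1 was at 20.4 RPKM with siLARP7 and 24.4 RPKM with siNC (ratio 0.839, interval 0.817 to 0.862). The 27 collagen genes under the minimum had log2 ratios from -0.28 to 0.34, and 2 of them, COL11A1 and COL22A1, were listed at 0 in both libraries.

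In HCC1937 8 of the 11 collagen genes above the minimum had a log2 ratio above 0, where 35.6% of all genes did. COL23A1, 1 of the 8, reached 1 RPKM with siLARP7 only, so its place above 0 follows from how it passed. COL18A1 was at 10.9 RPKM with siLARP7 and 6.61 RPKM with siNC (ratio 1.66, interval 1.58 to 1.74, log2 ratio 0.65), from at least 4723 reads with siLARP7 and 2779 with siNC. COL5A1, the single fibrillar gene above the minimum, was at 4.996 RPKM with siLARP7 and 3.10 RPKM with siNC (ratio 1.61, interval 1.52 to 1.71, log2 ratio 0.55). These had the highest log2 ratios of the 11 genes. The median log2 ratio was 0.13 for 3 type IV genes and 0.38 for 7 others, beside -0.14 for all genes. The scaling that brings the median ratio of all genes to 1 shifts plain log2 ratios by 0.13 and those on RPKM + 1 by less. With it COL18A1 was at 0.77 and COL5A1 at 0.65, and the medians were 0.21 for type IV genes and 0.44 for the others. Both medians of the others, 0.38 and 0.44, are the values of COL23A1 itself.

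Type VI chains made up most of the collagen RNA of HCC1937. COL6A1 was at 38.8 RPKM with siLARP7 and 29.1 RPKM with siNC (ratio 1.33, interval 1.28 to 1.39, log2 ratio 0.40). COL6A2 was at 36.2 RPKM with siLARP7 and 26.7 RPKM with siNC (ratio 1.35, interval 1.31 to 1.40, log2 ratio 0.42). Their proportion was 1.07 with siLARP7 and 1.09 with siNC, so the chains lay higher together, as they kept their proportion in the other cell types. COL6A3 had at least 2 reads with siLARP7 and 4 with siNC. COL17A1, the transmembrane collagen of hemidesmosomes, was at 3.62 RPKM with siLARP7 and 2.65 RPKM with siNC (ratio 1.37, interval 1.25 to 1.50). COL23A1, another transmembrane chain, reached the minimum with siLARP7 only, at 1.36 RPKM against 0.816 RPKM with siNC (ratio 1.66, interval 1.36 to 2.04).

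Type IV chains of HCC1937 differed less. COL4A2 was at 6.21 RPKM with siLARP7 and 5.17 RPKM with siNC (ratio 1.20, interval 1.13 to 1.28, log2 ratio 0.23), while COL4A2-AS1 was at 3.33 RPKM with siLARP7 and 1.99 RPKM with siNC. COL4A1 was at 1.93 RPKM with siLARP7 and 2.12 RPKM with siNC (ratio 0.911, interval 0.824 to 1.006), and the proportion of COL4A1 to COL4A2 was 0.311 with siLARP7 and 0.410 with siNC. As in MDA-MB-231, that proportion was lower with siLARP7. COL12A1 was at 1.16 RPKM with siLARP7 and 1.42 RPKM with siNC, and its interval, 0.569 to 1.18, holds a ratio of 1. No length could be told from the RPKM steps of this gene, so the interval was computed as for a gene of 1 kb. Its width therefore rests on that assumed length, and a longer length would give a narrower interval. Type I collagen was barely read in this line. COL1A1 was at 0.779 RPKM with siLARP7 and 0.588 RPKM with siNC, and COL1A2 had at least 16 reads with siLARP7 and 4 with siNC. COL5A2 was at 0.0966 RPKM with siLARP7 and 0.0878 RPKM with siNC.

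**Figure D4:**
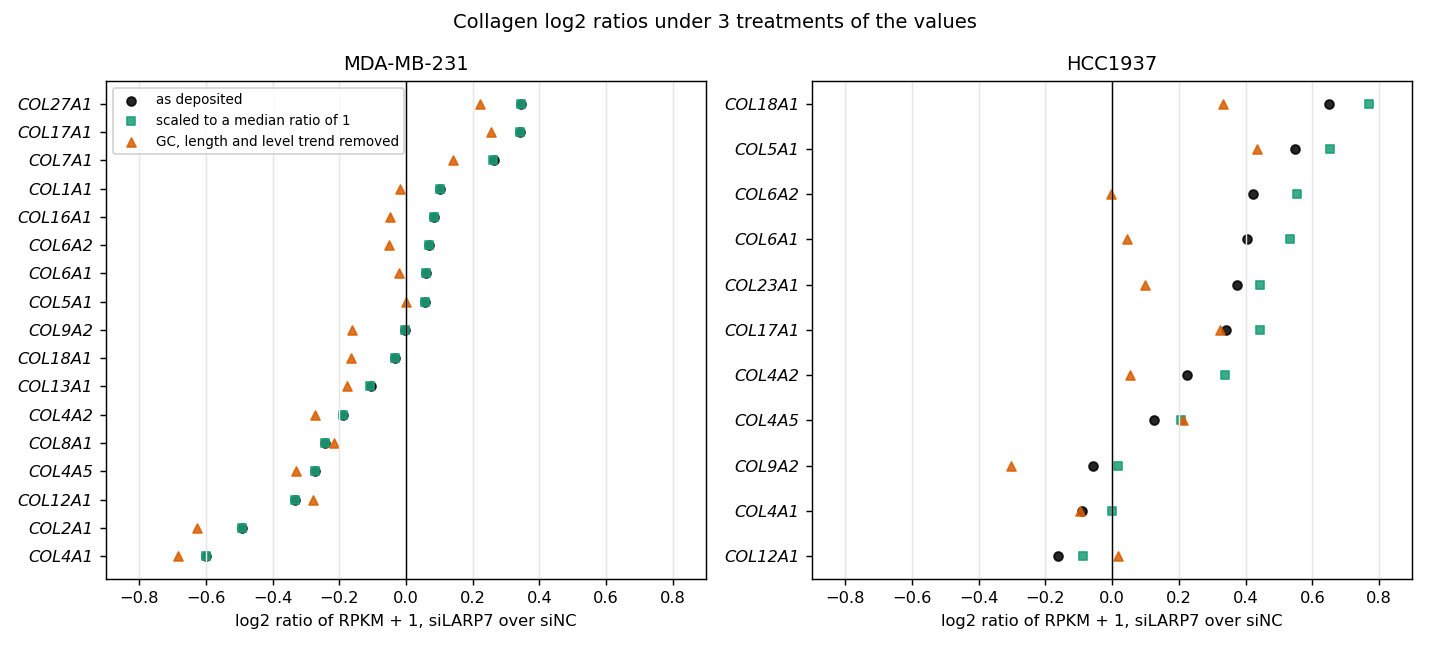
Log2 ratio of RPKM + 1, siLARP7 over siNC (x axis), of the collagen genes above the minimum (y axis) in MDA-MB-231 and HCC1937, as deposited (circles), after scaling to a median ratio of 1 (squares) and after removal of a trend on GC, length and level (triangles). In HCC1937 COL6A1 and COL6A2 lie at 0.40 and 0.42 as deposited and at 0.04 and -0.00 with the trend removed. The median there was -0.14 over all genes as deposited and -0.15 over protein-coding genes with the trend removed.

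GC content moved with the ratios of the human lines. Over all protein-coding genes the log2 ratio and the GC content of the longest transcript had a Spearman correlation of 0.36 in MDA-MB-231 (12900 genes) and 0.57 in HCC1937 (11962 genes), a description across genes that share 2 libraries. The collagen genes above the minimum are GC-rich, with a median of 61.3% in MDA-MB-231 and 62.0% in HCC1937, beside 50.01% and 50.6% over all protein-coding genes. After removal of a trend on GC, transcript length and level, the log2 ratios in HCC1937 were 0.33 for COL18A1, 0.43 for COL5A1 and 0.32 for COL17A1. The type VI genes were then at 0.04 (COL6A1) and -0.00 (COL6A2), and COL4A2 was at 0.05. The mean over genes was added back in this step. The median over all protein-coding genes was then -0.15 in HCC1937 and -0.01 in MDA-MB-231. In MDA-MB-231 the same step left COL4A1 at -0.68, COL2A1 at -0.63 and COL4A2 at -0.27, and 4 of the 17 genes lay above 0 and 13 below. In HCC1937 8 of the 11 genes still lay above 0 and 3 below. COL23A1, which passed the minimum through siLARP7 only, was 1 of the 8, at 0.10. COL18A1 shares 16.4% of its exon bases with SLC19A1 on the opposite strand, and in HCC1937 SLC19A1 was at 3.23 RPKM with siLARP7 and 2.91 RPKM with siNC. In MEFs this step was not run, since no mouse transcripts were at hand.

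**Figure D5:**
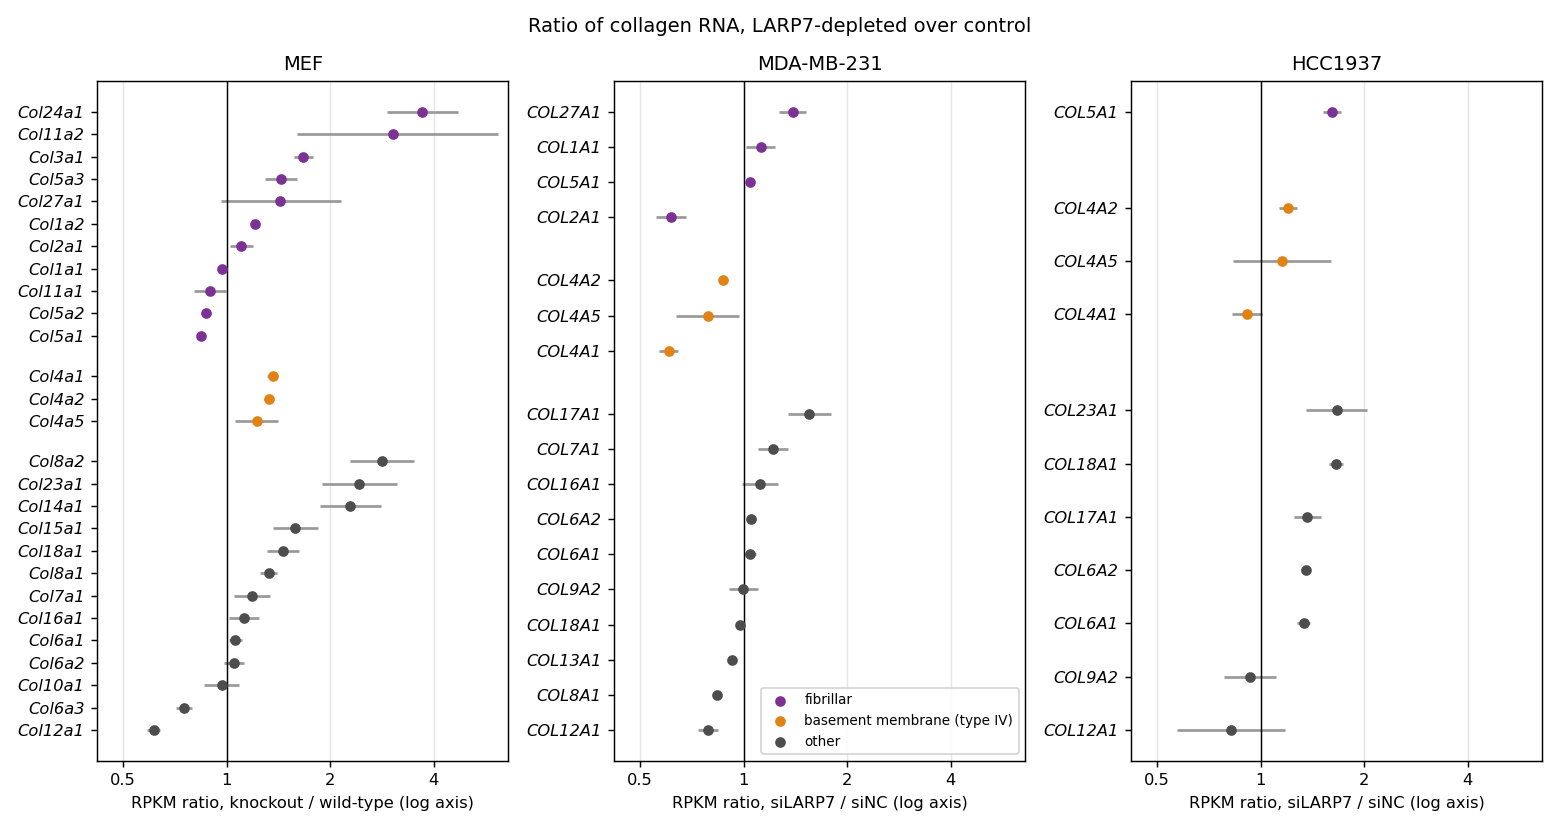
Plain RPKM ratio, LARP7-depleted over control (x axis, log scale), of the collagen genes above the minimum in MEFs (27), MDA-MB-231 (17) and HCC1937 (11), with genes coloured by class. Bars are 95% exact intervals for counting error only, and the type IV genes lie right of 1 in MEFs and left of 1 in MDA-MB-231.

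Across cell types 8 collagen genes passed the minimum everywhere, and 3 of them lay on the same side of 0 in all 3 pairs. The same count was not taken over all genes, so the 3 of 8 have no background beside them. COL12A1 was below 0, with log2 ratios of -0.70 in MEFs, -0.33 in MDA-MB-231 and -0.16 in HCC1937. Removing the trend put it at 0.02 in HCC1937, beside a median of -0.15 over all protein-coding genes. COL6A1 and COL6A2 were above 0 in each pair, at 0.08 and 0.07 in MEFs, 0.06 and 0.07 in MDA-MB-231, and 0.40 and 0.42 in HCC1937. With the trend removed both lay below 0 in MDA-MB-231, at -0.02 and -0.05. The other 5 were mixed. COL4A1, COL4A2, COL4A5 and COL18A1 had positive log2 ratios in MEFs and negative ones in MDA-MB-231, and COL5A1 had -0.24 in MEFs and 0.55 in HCC1937. The knockout and the siRNA pairs differ in species, in how LARP7 was depleted and in its remaining level, and the difference between cell types was not tested. Counting intervals excluded a ratio of 1 for 24 of 27 genes in MEFs, for 14 of 17 in MDA-MB-231 and for 7 of 11 in HCC1937. They do not hold the variation between cultures. Intervals were computed for collagen genes only, so no share over all genes stands beside these counts. These counts are not alike, since 22 of the 27, 3 of the 17 and 2 of the 11 intervals were computed as for a gene of 1 kb. In HCC1937 those genes were COL4A5 and COL12A1, whose intervals hold a ratio of 1 at that assumed length.

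Genes that build and handle collagen were described by 9 lists. In MEFs 2 of 78 pathway genes above the minimum were called higher and none lower, a share near the 2.4% higher and 0.884% lower of all genes. These were Dcn (decorin), at 92.6 RPKM in the knockout and 16.8 RPKM in the wild type, and Lum (lumican), at 38.3 RPKM in the knockout and 10.6 RPKM in the wild type, small proteoglycans that bind collagen fibrils. Of the 78, 41 lay above 0 and 37 below, where 49.97% of all genes lay below 0, which is the share to set beside the counts of each list. Of the 10 measured members of the list that holds Dcn and Lum, 8 lay above 0, with a median log2 ratio of 0.27. Among 16 genes for chain modification and folding 13 lay above 0, with a median of 0.13. The prolyl hydroxylase P4ha2 had the largest log2 ratio there, at 35.8 RPKM in the knockout and 20.9 RPKM in the wild type (0.75). Of 6 genes for removal of the propeptides, 3 lay above 0, and Tll1, a tolloid protease, was at 7.63 RPKM in the knockout and 15.5 RPKM in the wild type (-0.93). Of 12 basement membrane partners of type IV collagen, 6 lay above 0, and Agrn (agrin) was at 31.3 RPKM in the knockout and 15.3 RPKM in the wild type (0.98).

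The remaining MEF lists had smaller values. In the crosslinking list 1 of 5 genes lay above 0, and the lysyl oxidase relative Loxl3 was at 79.5 RPKM in the knockout and 97.5 RPKM in the wild type (-0.29). In the export list 2 of 6 lay above 0, with Creb3l2, a transcription factor for secretory genes, at 10.5 RPKM in the knockout and 13.2 RPKM in the wild type (-0.30). In the list of receptors 5 of 6 lay above 0, and the collagen-binding integrin Itga11 was at 17.2 RPKM in the knockout and 26.5 RPKM in the wild type (-0.60). Of 12 genes of the TGF-beta pathway, the main inducer of collagen genes, 2 lay above 0, with the receptor Tgfbr2 at 30.1 RPKM in the knockout and 20.3 RPKM in the wild type (0.54). In the list of collagen mRNA binding 1 of 5 lay above 0, and Vim was at 514 RPKM in the knockout and 698 RPKM in the wild type (-0.44). The gene that lay above 0 was Larp6, at 2.12 RPKM in the knockout and 1.37 RPKM in the wild type.

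In MDA-MB-231 none of 67 pathway genes above the minimum was called, where 0.501% of all genes were called higher and 0.74% lower. Of the 67, 55 lay below 0, where 49.8% of all genes did. P4HA2 was at 7.23 RPKM with siLARP7 and 15.1 RPKM with siNC (log2 ratio -0.97), the opposite side from MEFs, and 13 of 16 genes of its list lay below 0 with a median of -0.15. Of 12 basement membrane partners 11 lay below 0, with a median of -0.24 beside -0.27 for the type IV chains. The laminin chain LAMB3 was at 46.9 RPKM with siLARP7 and 68.0 RPKM with siNC (-0.53). All 5 collagen receptors lay below 0, with a median of -0.50, and the integrin ITGA2 was at 11.5 RPKM with siLARP7 and 17.4 RPKM with siNC (-0.56). The crosslinking enzyme LOX was at 13.9 RPKM with siLARP7 and 20.7 RPKM with siNC (-0.54), and 3 of 5 genes of its list lay below 0. The vesicle coat protein SEC23A was at 7.21 RPKM with siLARP7 and 10.9 RPKM with siNC (-0.54), and 5 of 6 export genes lay below 0. The TGF-beta receptor TGFBR1 was at 7.97 RPKM with siLARP7 and 13.9 RPKM with siNC (-0.74), and 10 of 11 genes of that pathway lay below 0. The median of that pathway was -0.15 as deposited and -0.06 with the trend removed, beside -0.01 over all protein-coding genes. With the trend removed the medians of the basement membrane partners and the receptors were -0.33 and -0.44. Smaller values were those of ADAMTS14, a propeptide protease, at 7.74 RPKM with siLARP7 and 6.11 RPKM with siNC (0.30), and SPARC, a collagen-binding glycoprotein, at 0.924 RPKM with siLARP7 and 1.51 RPKM with siNC (-0.38). Of 4 propeptide genes 2 lay below 0, and so did 2 of 3 fibril-associated genes and 4 of 5 genes of collagen mRNA binding. VIM was at 199 RPKM with siLARP7 and 149 RPKM with siNC (0.42), and LARP6 at 9.29 RPKM with siLARP7 and 9.96 RPKM with siNC.

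In HCC1937 2 of 56 pathway genes above the minimum were called, both lower, where 0.399% of all genes were called higher and 1.23% lower. Of the 56, 27 lay below 0, where 64.4% of all genes did, which is the share to set beside the counts below. The collagen-binding integrin ITGA2, 1 of these, was at 5.27 RPKM with siLARP7 and 13.4 RPKM with siNC (log2 ratio -1.20, and -0.95 with the trend removed). Among genes for export 4 of 5 lay below 0, and MIA3, the carrier that loads procollagen into vesicles, was at 2.76 RPKM with siLARP7 and 5.72 RPKM with siNC (-0.84). The median of the export genes was -0.24 as deposited and -0.12 with the trend removed. Other lists held smaller values. Of 14 genes for modification and folding 9 lay above 0, with the lysyl hydroxylase PLOD1 at 29.9 RPKM with siLARP7 and 21.3 RPKM with siNC (0.47). The median of this list was 0.12 as deposited and -0.09 with the trend removed, beside -0.15 over all protein-coding genes. All 3 propeptide genes and 7 of 11 basement membrane partners lay above 0, with PCOLCE, an enhancer of propeptide removal, at 2.99 RPKM with siLARP7 and 1.94 RPKM with siNC (0.44). With the trend removed the medians were 0.24 for the propeptide genes and -0.06 for the basement membrane partners. The proteoglycan HSPG2 was at 16.6 RPKM with siLARP7 and 12.5 RPKM with siNC (0.38, and 0.09 with the trend removed). The lysyl oxidase relative LOXL2 was at 37.2 RPKM with siLARP7 and 27.7 RPKM with siNC (0.41, and 0.17 with the trend removed). The matrix glycoprotein THBS1 was at 1.84 RPKM with siLARP7 and 2.26 RPKM with siNC (-0.20, and -0.007 with the trend removed). The myosin MYH10 was at 1.84 RPKM with siLARP7 and 2.91 RPKM with siNC (-0.46, and -0.34 with the trend removed). Below 0 lay 2 of 4 receptor genes, 1 of 2 crosslinking genes, 1 of 3 fibril-associated genes, 6 of 9 TGF-beta genes and 4 of 5 genes of collagen mRNA binding. LARP6 was at 22.6 RPKM with siLARP7 and 18.7 RPKM with siNC (0.26).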

How the data were processed

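RNA was sequenced from 6 libraries, 1 per group. The submitters' processing notes name STAR, cutadapt, FastQC and GRCh37, without versions. The mouse build and any use of strand are not given in the sources used here. Submitters' labels name human for every library, but the MEF table lists mouse genes. Per the file headers, the values the authors deposited are RPKM, and they were analysed as such. A GFOLD log2 column in the deposited tables, named so per the file headers, was used for no result. Duplicate pseudoautosomal entries (47 per human file) were dropped, and so were 6 further COL11A2 entries on other copies of that region.

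Ratios of depleted to control were taken as log2 of RPKM + 1, for genes that reached 1 RPKM in either library, and a gene was called at 2-fold or more. With 1 library a group no test was possible. Depth was recovered from the size of RPKM steps. In human libraries all of 2600 to 3432 single-exon genes under 50 reads (100%) gave whole reads within 0.01. In MEFs, without annotated lengths, depth rests on 476 short genes, of which 36.6% gave whole lengths, and is less sure. Reads of a gene come from the shortest length of 1000 bases or more that makes them whole, so they are lower limits. Where no length could be told (22 of 27 genes above the minimum in MEFs, 3 of 17 genes in MDA-MB-231, 2 of 11 genes in HCC1937), the 95% exact Clopper-Pearson interval of the ratio was computed as for a gene of 1 kb. Intervals cover counting error only, and PCR copies are not independent molecules. Cubic trends on GC content, length and level were fitted over protein-coding genes annotated in GENCODE release 29, and the mean was added back.

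The members, lists and rules were chosen with earlier results of these data known. The rule named the 5 highest collagen genes by mean level in each cell type, those at 5 RPKM or more with a log2 ratio of 0.5 or more either way, and 4 chain pairs; pathway genes were named where called, otherwise the largest log2 ratio of a list. A gene that this rule names is not reported here. Other collagen genes with values were chosen after these were seen. The 2-fold call on RPKM + 1 was tested on simulated data. Python 3.11.15, numpy 2.4.6, pandas 2.3.3, scipy 1.17.1 and matplotlib 3.10.9 were used.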

Additional observations from a re-analysis of the deposited data

Results flagged for a closer look

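COL4A2, a chain of the type IV collagen network, lay on opposite sides of its control in the human lines under the same contrast. Its log2 ratio of siLARP7 to siNC came to -0.19 for MDA-MB-231 and to 0.23 for HCC1937, and both counting intervals excluded a ratio of 1. After removal of a trend on GC, transcript length and level the values were -0.27 in MDA-MB-231 and 0.05 in HCC1937. The median over all protein-coding genes was then -0.01 in MDA-MB-231 and -0.15 in HCC1937. With 1 library per group the difference between the lines was not tested.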

How the results depend on the processing

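No paired analysis was possible because each group held 1 library and the labels give no replicate numbers. Results changed under these alternatives. In MEFs 5 collagen genes were higher with a pseudocount of 0.1 and 5 by the plain ratio, against 0 as reported, and a 1.5-fold rule gave 4 higher and 1 lower. That rule gave 1 lower in MDA-MB-231 and 1 higher in HCC1937. With no level minimum the medians were 0.22 (type IV) and 0.072 (other) in MEFs, -0.12 (type IV) in MDA-MB-231, and 0.030 (fibrillar) and 0.0029 (other) in HCC1937. With a minimum of 5 RPKM they were 0.045 (fibrillar) and 0.081 (other) in MEFs and -0.39 (type IV) in MDA-MB-231. With types VII, XV and XVIII counted as basement membrane the others of MEFs stood at 0.12. With the trend removed the others stood at -0.11 in MDA-MB-231 and 0.044 in HCC1937. COL5A1, alone in the fibrillar class of HCC1937, stood at 0.67 (pseudocount 0.1), 0.69 (plain ratio), 0.65 (median ratio of 1), 0.66 (trimmed mean) and 0.43 (trend removed).

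Alternatives for LARP7 and the pathway genes were chosen after seeing the data. LARP7 stood at -1.39 and -1.41 in MEFs, -0.92 and -0.94 in MDA-MB-231 and -0.94 and -0.96 in HCC1937 with a pseudocount of 0.1 and by the plain ratio, at -0.66 in MDA-MB-231 and -0.49 in HCC1937 with the trend removed, and at -0.66 (median ratio of 1) and -0.65 (trimmed mean) in HCC1937. With a pseudocount of 0.1, 2 pathway genes were called lower in MEFs, 1 in MDA-MB-231 and 4 in HCC1937; in HCC1937 it was 1 under either scaling and 1 with the trend removed. The cause was not tested. Of 68 alternatives of counts, 56 stayed within 1.5 times the main count, and of 79 of medians and LARP7 levels, 53 stayed within 0.1. Collagen genes near 1 RPKM are limited by depth, and no alternative stands in for replicate cultures.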

Other observations

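COL11A2, a fibrillar chain known from cartilage and the inner ear, was read at low levels in every library, and it was singled out after its values were seen. Col11a2 was at 1.09 RPKM in LARP7-/- and 0.357 RPKM in wild-type MEFs (ratio 3.04, interval 1.60 to 6.17). In MDA-MB-231 COL11A2 was at 0.490 RPKM with siLARP7 and 0.173 RPKM with siNC (ratio 2.82, interval 1.84 to 4.45), from at least 88 reads with siLARP7 and 29 with siNC. In HCC1937 it had at least 14 reads with siLARP7 and 9 with siNC, and its interval, 0.611 to 3.97, holds a ratio of 1. The human tables list 6 further copies of this gene, and over all 7 entries MDA-MB-231 values ranged from 0.484 to 0.517 RPKM with siLARP7 and from 0.173 to 0.186 RPKM with siNC.

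COL3A1 was under the minimum in MDA-MB-231, at 0.0578 RPKM with siLARP7 and 0.222 RPKM with siNC (ratio 0.260, interval 0.152 to 0.427), from at least 21 reads with siLARP7 and 75 with siNC. The ratio of Col3a1 in MEFs was 1.67. These values were also chosen after they were seen.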
